A study of Mus musculus with 18 samples.

Results

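Ribosome biogenesis factors are the proteins that transcribe, modify, cut and fold ribosomal RNA and attach ribosomal proteins to it. The 42 factors described here were chosen by gene symbol from a list of names, with earlier results of these data known. All 42 were found among the 24411 gene symbols of the deposited expression table. By role they fell into 6 classes: 5 genes of RNA polymerase I (Pol I) transcription, 4 of the box C/D small nucleolar ribonucleoproteins (snoRNPs) and U3, 4 of the box H/ACA snoRNPs, 6 nucleolar scaffolds, GTPases or helicases, 12 small subunit assembly factors and 11 large subunit assembly factors.

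The study sequenced poly(A) RNA from the mouse line RAW264.7, which resembles macrophages, to ask how loss of the histone demethylase gene Kdm7a affects macrophage polarization. A Kdm7a-deficient line made with CRISPR/Cas9 (KO) was set against cells given a control guide RNA (control, labelled wild type), and each was kept for 48 h in 1 of 3 conditions with 3 libraries each, 18 in all. M0 cells had no stimulus, M1 cells had 2 ng/ml mouse IFN-γ with 0.1 µg/ml LPS, and M2 cells had 20 ng/ml of the mouse cytokines IL-4, IL-13 and IL-10 together with human TGF-β1 at 2 ng/ml. The labels name 1 KO line and 1 control line, so a difference between the lines that does not come from Kdm7a cannot be told apart from an effect of its loss, and they leave unsaid whether the libraries of a group are separate cultures, so the spread behind each p-value may be technical.

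Ribosome production starts in the nucleolus, where Pol I transcribes the ribosomal RNA precursor. Box C/D snoRNPs methylate that precursor, box H/ACA snoRNPs convert uridines in it to pseudouridines, and separate sets of assembly factors then shape the small and the large subunit. Proteins of the MYC family are known activators of many of these genes, through the E-box sequence CACGTG bound with their partner MAX, and MXD proteins and MNT compete for MAX as repressors.

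Promoters were searched in the RefSeq table of start sites for GRCm38.p6, which holds 250 bases before and 50 bases after each start. Of the 42 genes 37 had an entry. The motif CACGTG, which reads the same on both strands, was found in 9 of these 37 promoters (24.3%), against 8.09% of the 27025 genes with an entry and 12.1% of the 8784 tested genes with one. The 9 genes were Grwd1, Ltv1, Mybbp1a, Nop2, Pes1, Rrn3, Tsr1, Utp20 and Wdr43. The windows of 4 of these genes are shown, on the gene's own strand with CACGTG in capitals, because MYC family genes changed strongly in these cells. Rrn3 is the gene with 2 such motifs, and Grwd1 is the gene with the largest genotype difference in M1.
Rrn3, chr16:13780472-13780501, plus strand: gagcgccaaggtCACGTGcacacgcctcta
Rrn3, chr16:13780639-13780668, plus strand: ttacgctctgctCACGTGggccgcgtcccg
Nop2, chr6:125131811-125131840, plus strand: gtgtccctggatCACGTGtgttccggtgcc
Grwd1, chr7:45830740-45830769, minus strand: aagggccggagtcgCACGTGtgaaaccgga
Utp20, chr10:88826765-88826794, minus strand: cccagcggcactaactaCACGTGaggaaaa
The motif starts 215 and 48 bases before the start site in Rrn3 and 60 bases before it in Nop2. In Grwd1 and Utp20 it starts at bases 35 and 38 counted from the start site.

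The 120 bases upstream of Dkc1, the gene that fell most in M1, are shown for contrast because the Dkc1 promoter window held no CACGTG.
Dkc1, chrX:75095734-75095853, plus strand: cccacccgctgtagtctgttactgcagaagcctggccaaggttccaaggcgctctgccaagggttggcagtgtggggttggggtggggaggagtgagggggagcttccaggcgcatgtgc
The ETS-type motif CCGGAAG, or CTTCCGG on the other strand, was in 14 of the 37 promoters (37.8%), against 9.93% of all genes and 21.5% of tested genes. The TATA motif TATAAA, or TTTATA on the other strand, was in 2 of 37 (5.41%), against 15.7% of all genes and 8.47% of tested genes. A further motif searched, CACGCG or CGCGTG on the other strand, was in 13 of the 37 (35.1%), against 10.5% of all genes and 20.4% of tested genes. Some genes without CACGTG held it, such as Nop10 and Nolc1. None of these motifs can share bases with another. In control cells the median log2 fold change of M1 over M0 was -2.37 for the 9 genes with CACGTG and -2.74 for the 28 without it. A match is a description of the letters and not of a bound site.

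Expression was given by the authors as TPM, the share of a library's transcripts scaled to a fixed total and corrected for transcript length, so levels of different genes can be compared, but depth is unknown. Kdm7a itself was at 3.25 to 3.52 TPM in KO and 10.96 to 11.29 TPM in control M0 libraries, at 7.19 to 7.66 in KO and 28.7 to 30.3 in control M1 libraries, and at 5.83 to 7.54 in KO and 22.2 to 24.5 in control M2 libraries. Its log2 fold change of KO over control was -1.47, -1.85 and -1.65 in M0, M1 and M2. Libraries of a group correlated at 0.994 to 0.997 over genes. Of 10 macrophage markers 9 averaged 1 TPM or more in every group, summing to between 4037 and 6257 TPM per library. Summed markers of other cell types reached at most 1.20 TPM (epithelial), 3.63 (fibroblast), 9.21 (T cell), 21.2 (B cell) and 62.0 (neutrophil), and Ms4a1, Cd8a, Epcam and S100a9 were listed at 0 in all libraries. Tests used limma on log2(TPM + 1) over the 11548 genes that reached 1 TPM in 3 or more libraries, and called means a p below 0.05 after Benjamini-Hochberg adjustment over those genes. All 42 factors were tested.

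In unstimulated cells the factors were well expressed. They summed to 11193 ± 150 TPM in KO and 11048 ± 122 TPM in control cells (SD, n = 3 each), 1.12% of all TPM in KO and 1.10% in control. Mean levels spanned 15.5 TPM (Polr1e, a Pol I subunit) to 5156 TPM (Npm1) in KO and 16.4 to 5082 TPM, for the same genes, in control. Npm1, nucleophosmin, an abundant nucleolar chaperone, made up 45.2% to 46.9% of the sum in an M0 library, and 41.1% to 55.8% over all 18 libraries. The next highest was Ncl, nucleolin, at 869 ± 16 TPM in KO and 857 ± 18 TPM in control M0 cells, followed by the box C/D core proteins Nop58, Fbl and Nop56. Fbl, fibrillarin, is the methyltransferase of that particle. The class with the lowest median level was Pol I transcription, at 38.4 TPM in KO and 42.2 TPM in control, and the class with the highest was box C/D, at 383 and 378 TPM. The coefficient of variation between libraries had a median over the factors of 2.63% in KO M0 and 2.51% in control M0. Over all 6 groups it was 2.32% to 5.43%.

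**Figure D1:**
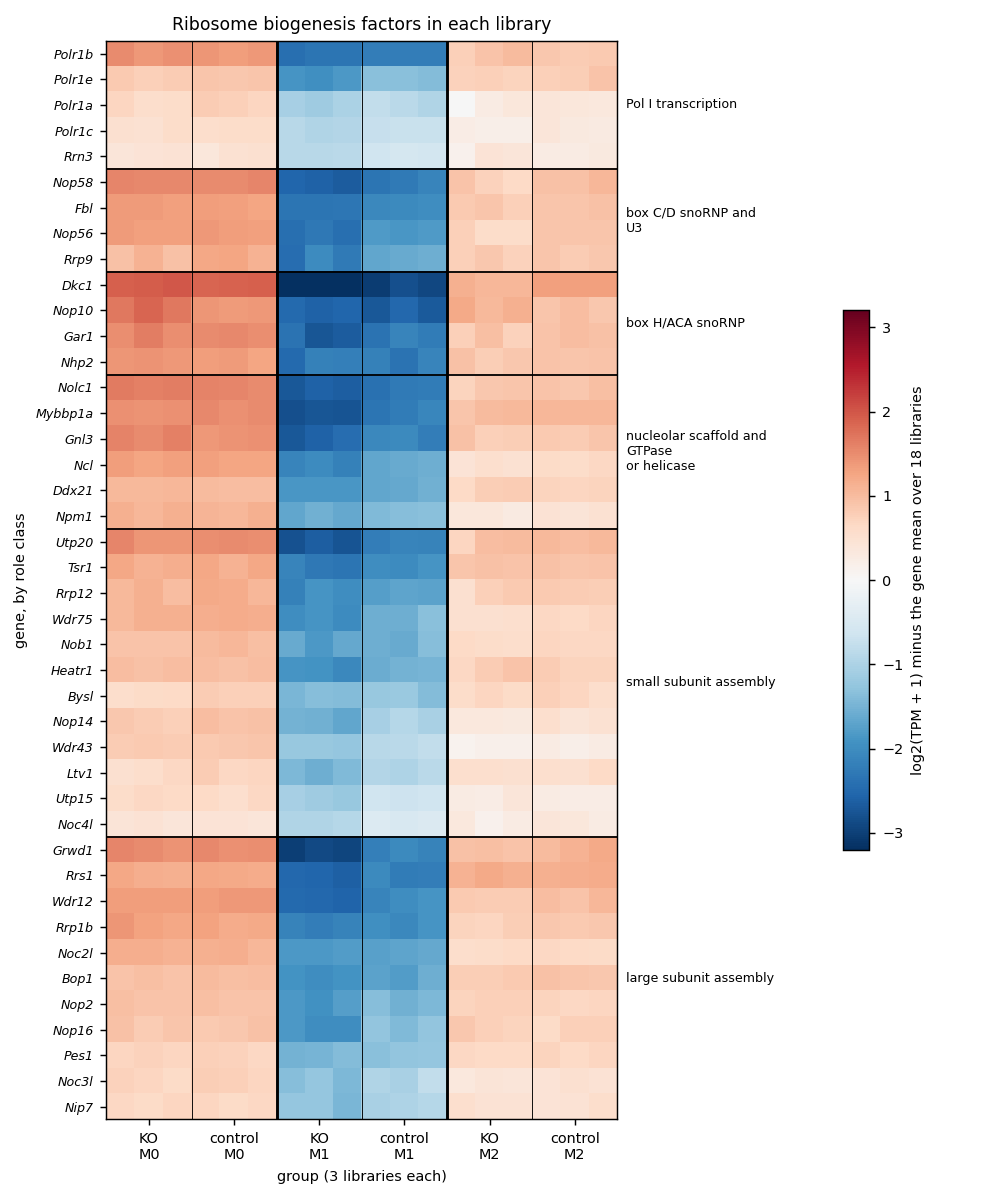
Each row is 1 of the 42 factors, grouped by role class, and each column is 1 library. Colour gives log2(TPM + 1) minus the gene's mean over the 18 libraries. All 42 rows are lowest in the M1 columns, which are darker in KO than in control for most genes, and the M2 columns lie between M0 and M1 for most genes.

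M1 stimulation lowered the whole set in both genotypes. All 42 factors fell in KO cells and all 42 fell in control cells, where 58.4% and 56.9% of the tested genes were called lower and 32.0% and 32.2% higher. The factors summed to 1415 ± 39 TPM in KO M1 cells and 1759 ± 43 TPM in control M1 cells, which is 0.142% and 0.176% of all TPM. The median log2 fold change of M1 over M0 was -3.02 in KO and -2.74 in control, beside -0.43 and -0.38 over all tested genes. In every one of the 42 genes each M1 library was below each M0 library of the same genotype, as was so for 58.7% of tested genes in KO and 57.3% in control. No factor rose, and none did at an unadjusted p below 0.05 with limma.

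The fall was large for most of the genes. A fall of 2-fold or more on the log2(TPM + 1) scale was called for 42 factors in KO, where the background was 33.6%, and for 41 in control, where it was 30.9%. A fall of 8-fold or more was called for 21 factors in KO and 17 in control, against 5.55% and 4.46% of tested genes. The gene short of 2-fold in control was Noc4l, a small subunit factor. These fold changes understate the change of genes that end near 1 TPM.

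Within the Pol I class the median log2 fold change of M1 over M0 was -1.69 in KO and -1.62 in control cells, the smallest of the 6 classes. Polr1b, the second largest Pol I subunit, changed most. It was at 1.16, 1.27 and 1.29 TPM in KO M1 libraries, against 32.2, 29.4 and 30.9 TPM in KO M0 libraries. In control cells it was at 1.49, 1.48 and 1.47 TPM in M1 libraries, against 29.7, 27.9 and 29.3 TPM in M0 libraries. The M1 and M0 libraries were thus far apart in both genotypes, and the control log2 fold change was -3.59 ± 0.06 (SE, adjusted p = 1.24e-21). Polr1c, a subunit shared with Pol III, had the highest level of the class and averaged 41.6 ± 0.86 TPM in KO M1 and 48.4 ± 0.24 TPM in control M1 cells, with M0 means of 116 TPM in KO and 121 TPM in control. Its control log2 fold change of M1 over M0 was -1.30 ± 0.04 (adjusted p = 3.71e-18). Rrn3, the initiation factor that brings Pol I to the ribosomal DNA promoter, was the least lowered of the class, at a mean of 16.6 TPM in KO M1 and 20.3 TPM in control M1, with M0 means of 42.2 and 43.1 TPM.

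Both snoRNP classes fell further. The median log2 fold change of M1 over M0 was -3.69 in KO and -3.25 in control for box C/D, and -4.20 in KO and -3.89 in control for box H/ACA. Dkc1, dyskerin, the pseudouridine synthase of the box H/ACA particle and also a telomerase component, fell most of all 42 genes. It was at 2.28, 2.09 and 2.24 TPM in KO M1 libraries, against 120.2, 122 and 126 TPM in KO M0 libraries. In control cells it was at 2.90, 3.55 and 3.26 TPM in M1 libraries, against 114, 116 and 119 TPM in M0 libraries. By mean TPM the M1 level was 55.8 times lower in KO and 36.0 times lower in control, with log2 fold changes of -5.27 ± 0.05 in KO and -4.80 ± 0.05 in control (adjusted p = 2.02e-25 and 8.98e-25). Nop10, a small protein of the same particle, averaged 11.4 TPM in KO M1 and 10.6 TPM in control M1, with M0 means of 239 and 187 TPM (control log2 fold change -4.02 ± 0.06, adjusted p = 1.11e-22).

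The other members of these particles moved the same way. Nhp2, the most abundant box H/ACA protein, averaged 27.0 TPM in KO M1 and 28.0 TPM in control M1, with M0 means of 358 and 337 TPM (control log2 fold change -3.55 ± 0.07, adjusted p = 7.74e-19). Nop58, a core box C/D protein, was at 26.2, 25.3 and 24.0 TPM in KO M1 libraries and 30.4, 32.3 and 35.7 TPM in control M1 libraries, with M0 means of 463 and 457 TPM. No KO M1 library reached a control M1 library of this gene, and its control log2 fold change of M1 over M0 was -3.76 ± 0.06 (adjusted p = 5.78e-21). Rrp9, the U3-specific protein of the class, had the smallest box C/D fall, with a log2 fold change of -3.24 in KO and -2.83 in control.

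**Figure D2:**
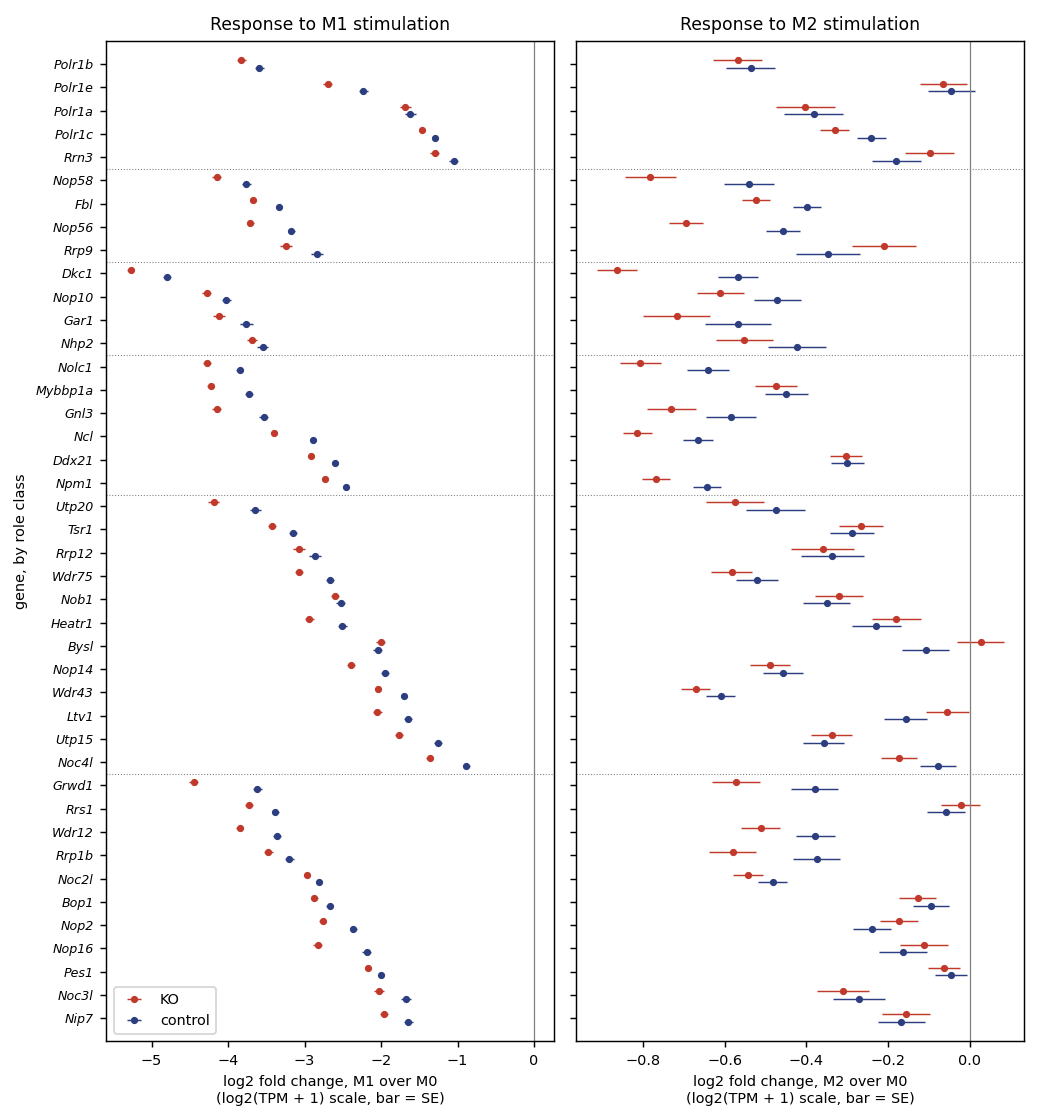
Each dot is the log2 fold change of M1 over M0 (left) or M2 over M0 (right) of 1 gene, on the log2(TPM + 1) scale, with KO in red and control in blue and bars of 1 SE. The axes of the panels cover different ranges. M1 changes run from -5.27 to -0.88, whereas no M2 change is below -0.86.

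Among the nucleolar scaffolds, GTPases and helicases the median log2 fold change of M1 over M0 was -3.77 in KO and -3.21 in control. Nolc1, a chaperone of snoRNPs, fell most, to 8.44, 9.35 and 9.02 TPM in KO M1 libraries, against 194, 189 and 191 TPM in KO M0 libraries. In control cells its mean was 11.6 TPM in M1 and 181 TPM in M0 (log2 fold change -3.85 ± 0.05, adjusted p = 3.17e-23). Npm1 remained the highest of the 42 genes in M1. It was at 748, 814 and 759.6 TPM in KO M1 libraries and 894, 935 and 938 TPM in control M1 libraries, with M0 libraries between 4964 and 5240 TPM. The 2 genotypes did not overlap in M1, and the control log2 fold change of M1 over M0 was -2.46 ± 0.03 (adjusted p = 6.13e-23).

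Small subunit factors had a median log2 fold change of M1 over M0 of -2.50 in KO and -2.28 in control, and large subunit factors one of -2.88 in KO and -2.67 in control. In the small subunit class Utp20, a component of the processome that forms on the nascent precursor, fell most. It averaged 1.37 ± 0.15 TPM in KO M1 and 2.52 ± 0.12 TPM in control M1, with M0 means of 42.2 and 43.1 TPM (control log2 fold change -3.65 ± 0.07, adjusted p = 1.83e-20). Wdr75, another processome component and the highest of its class, averaged 15.1 TPM in KO M1 and 21.5 TPM in control M1, with M0 means of 134 and 142 TPM (control log2 fold change -2.66 ± 0.05, adjusted p = 1.04e-20). Noc4l was the gene least lowered in control, at 28.4 TPM in KO M1 and 39.9 TPM in control M1, where M0 means were 74.8 and 74.4 TPM.

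In the large subunit class Grwd1, which in yeast has a counterpart that escorts a ribosomal protein, fell most. Its libraries were at 1.08, 1.27 and 1.21 TPM in KO M1, against 49.0, 46.7 and 44.4 TPM in KO M0. The control libraries were at 2.71, 3.07 and 2.84 TPM in M1, against 48.2, 45.2 and 46.5 TPM in M0. The log2 fold change of M1 over M0 was -4.45 ± 0.06 in KO and -3.62 ± 0.06 in control (adjusted p = 2.42e-23 and 6.61e-22). Rrs1, a large subunit factor with the highest mean level of its class over the study, averaged 11.2 TPM in KO M1 and 14.9 TPM in control M1, with M0 means of 159.9 and 164 TPM (control log2 fold change -3.38 ± 0.05, adjusted p = 7.01e-23). The partners Bop1, Pes1 and Wdr12, which form 1 complex, averaged 21.0, 36.6 and 9.97 TPM in control M1 cells, against 139, 149 and 112 TPM in control M0 cells.

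**Figure D3:**
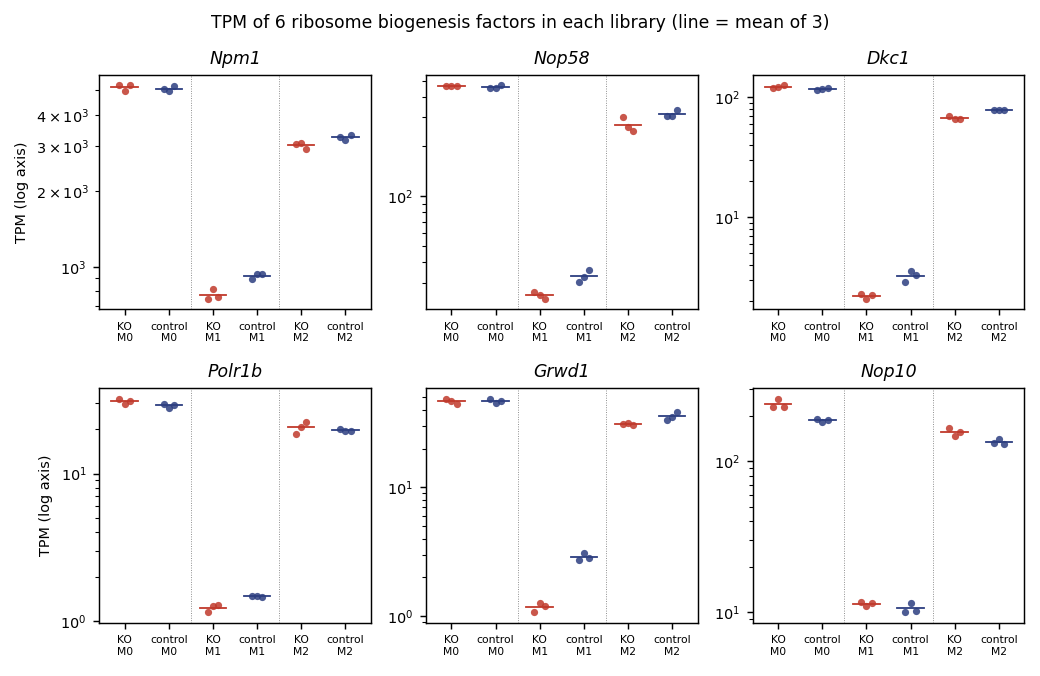
TPM of 6 factors in each library on a log axis, with KO (red) left of control (blue) in each condition and the mean of 3 libraries as a line. Npm1 has the highest level of the 42 genes, and Dkc1, Polr1b and Grwd1 are between 1.08 and 3.55 TPM in every M1 library.

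The rest of the pathway fell as well, though less uniformly. In M1 over M0 of control cells, 8 of 10 Pol I partners outside the set fell and 1 rose, 35 of 38 other small subunit factors fell and 3 rose, 43 of 45 other large subunit factors fell and 1 rose, and 11 of 12 RNA exosome genes fell and 1 rose. Their median log2 fold changes were -1.05, -1.47, -1.84 and -2.69. With TMM factors these counts of genes that fell were 6, 32, 41 and 11, and 2, 4, 3 and 1 rose. Of the polymerases, 10 of 12 Pol II subunits and 8 of 11 Pol III subunits fell, with medians of -1.13 and -1.36, and 1 Pol II subunit rose. With TMM factors 9 and 7 of them fell and 3 of each rose. As deposited 56.9% of tested genes were called lower in this comparison and 32.2% higher. With TMM factors 4968 of the 11548 (43%) were lower and 5351 higher. The shares of Pol I partners, Pol II and Pol III subunits were nearer these backgrounds than those of the assembly factors and exosome genes. A list of 24 cell division genes fell in full, with a median of -5.16 in control and -5.76 in KO. Their summed TPM was 341 to 349 in KO M1 and 454 to 478 in control M1 libraries, against 5277 to 5383 in KO M0 and 5100 to 5211 in control M0 libraries, so they moved with the factors, and their part in the fall was not tested. In bulk RNA, fewer cells that express a gene and less RNA per cell cannot be told apart.

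Because TPM are shares, strong rises of other genes lower every value. With TMM or median-ratio factors the median of all tested genes in M1 over M0 of control cells moved to 0.046 or 0.014, and the share of calls that were rises moved to 51.9% or 50.6%, against 36.1% as deposited. In KO cells that share was 51.3% or 50.6%, against 35.4% as deposited. All 42 factors fell under both scalings in both genotypes, with a median log2 fold change in control of -2.24 or -2.28. Of tested genes 43% or 44.1% were called lower in control and 43.9% or 44.4% in KO.

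M2 stimulation lowered the factors much less. In KO cells 35 of 42 fell and in control cells 36 of 42 fell, where 43.2% and 37.0% of tested genes were called lower and 29.6% and 28.4% higher. No factor rose in either genotype, and none did at an unadjusted p below 0.05. The sums were 7253 ± 99 TPM in KO M2 and 7713 ± 126 TPM in control M2 cells. The median log2 fold change of M2 over M0 was -0.44 in KO and -0.38 in control, beside -0.09 and -0.05 over all tested genes. No factor fell by 2-fold, as 2.83% of tested genes in KO and 1.70% in control did. In 36 factors in KO and 39 in control each M2 library was below each M0 library, as in 44.2% and 39.7% of tested genes.

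The nucleolar scaffold class had the largest M2 changes, with a median of -0.75 in KO and -0.61 in control, and all 6 of its genes fell in both. Ncl, at the head of the control list, was at 478, 513 and 492 TPM in KO M2 libraries and 536, 529.7 and 553 TPM in control M2 libraries, with M0 libraries between 845 and 881 TPM. The M2 and M0 libraries did not overlap, and the log2 fold change was -0.81 ± 0.04 in KO and -0.67 ± 0.04 in control (adjusted p = 9.36e-14 and 3.03e-12). Npm1 fell by 0.77 in KO and 0.64 in control on the same log2 scale (adjusted p = 8.12e-14 and 1.87e-12). Nolc1 fell by 0.81 in KO and 0.64 in control (adjusted p = 2.35e-11 and 1.11e-09).

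All box C/D and box H/ACA genes fell in M2 cells of both genotypes. Dkc1 had the largest fall in KO, to 69.3, 65.7 and 66.3 TPM in M2 libraries, against 120.2, 122 and 126 TPM in M0 libraries. Its log2 fold change was -0.86 ± 0.05 in KO and -0.57 ± 0.05 in control (adjusted p = 4.46e-12 and 4.10e-09). In control cells Gar1 of the same particle fell by 0.57 (adjusted p = 7.16e-06), Nhp2 by 0.42 (adjusted p = 4.54e-05) and Nop58 of the box C/D particle by 0.54 (adjusted p = 3.35e-07).

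The assembly factors and Pol I genes were more mixed. In control cells 4 of 5 Pol I genes, 10 of 12 small subunit factors and 8 of 11 large subunit factors fell. Wdr43 changed most among small subunit factors, with a log2 fold change of -0.61 ± 0.03 (adjusted p = 6.92e-12), and Wdr75 fell by 0.52 (adjusted p = 2.64e-08). Noc2l changed most among large subunit factors, at -0.48 ± 0.04 (adjusted p = 4.78e-10), though 20.9% of its exon bases overlap Samd11 and no strand is stated for the counting. Polr1b fell by 0.54 (adjusted p = 1.84e-07) and Polr1c by 0.24 (adjusted p = 6.57e-06).

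The genes not called in control M2 over M0 were Polr1e, Noc4l, Bysl, Bop1, Pes1 and Rrs1. In KO cells they were Polr1e, Rrn3, Bysl, Ltv1, Nop16, Pes1 and Rrs1. Rrs1 was at 152.0, 164 and 156 TPM in KO M2 libraries and 155, 157 and 161 TPM in control M2 libraries, and M0 libraries were between 156 and 167 TPM. Its control log2 fold change of -0.06 ± 0.05 (adjusted p = 0.283) thus stands beside one of -3.38 in M1. The number of calls in KO was 29 with TMM and 32 with median-ratio factors, where 35.6% and 39.6% of tested genes were called lower. In control cells the number was 33 and 36, where 31.4% and 36.3% of tested genes were called lower. Cell division genes moved here too, with 22 of 24 lower in control (median -0.44) and 23 of 24 lower in KO (median -0.70), and their part was not tested.

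Without stimulus the KO and control lines differed little in these genes. One factor was called higher in KO and 1 lower, where 8.86% and 10.3% of tested genes were called higher and lower. At an unadjusted p below 0.05, for which these background shares do not hold, the numbers were 2 higher and 4 lower. The median log2 fold change of KO over control was -0.01, beside 0.00 over all tested genes, and the range was -0.21 (Rrp9) to 0.35 (Nop10).

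The factor called higher was Nop10, at 229, 260.5 and 229 TPM in KO M0 libraries and 191, 183 and 186 TPM in control M0 libraries. The libraries did not overlap, and the log2 fold change was 0.35 ± 0.06 (adjusted p = 1.46e-04). Bysl, the bystin protein of small subunit export, was called lower, at 33.8, 34.7 and 35.3 TPM in KO and 40.3, 38.5 and 38.8 TPM in control M0 libraries (log2 fold change -0.18 ± 0.06, adjusted p = 0.0370). The Bysl call was lost without any 1 of the 6 M0 libraries (adjusted p 0.0620 to 0.119), and 9.37% of its exon bases overlap the cyclin gene Ccnd3. Without KO M1 library 1 or 2, which enter through the shared variance, 2 factors were called lower in M0. For the other 40 genes a p above the threshold does not show that the lines were alike.

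**Figure D4:**
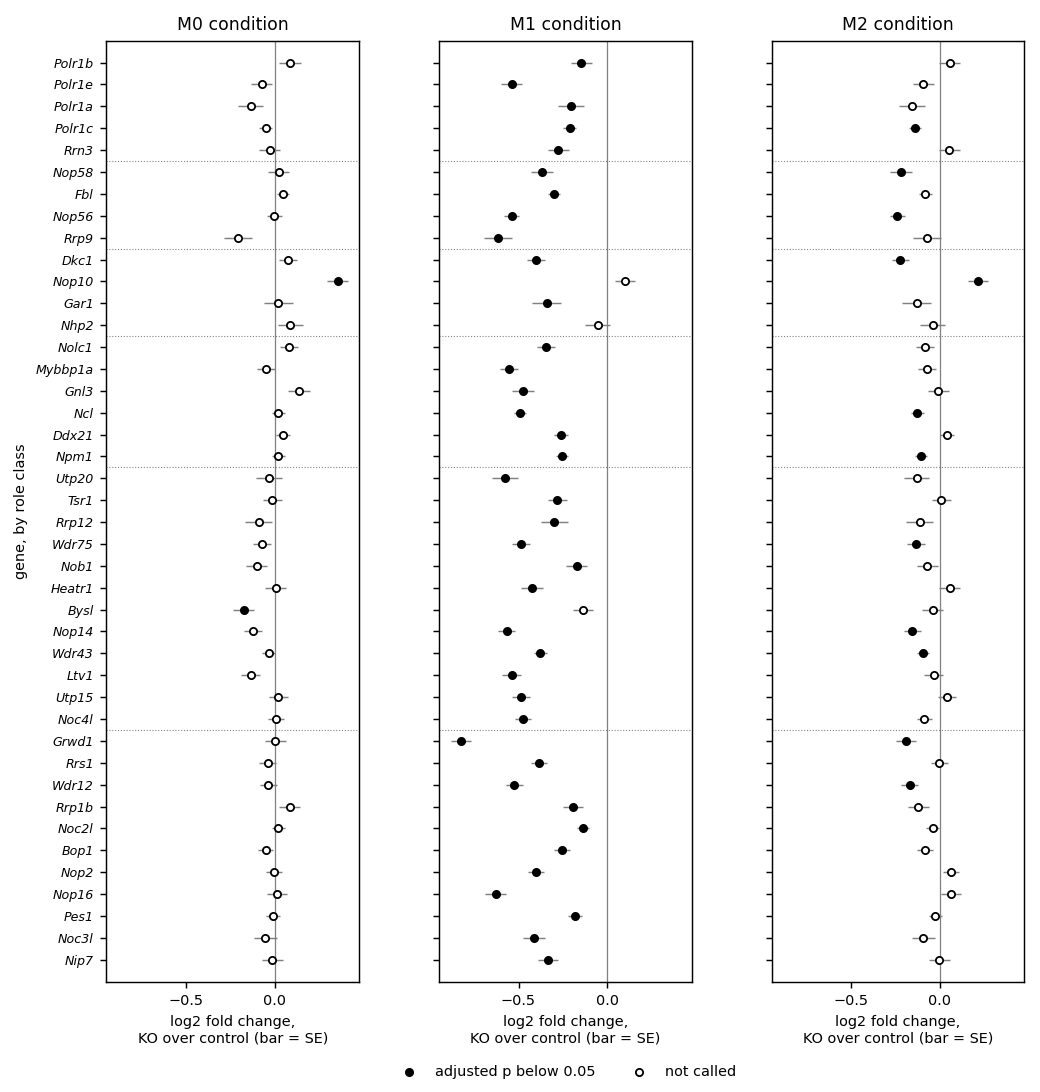
Each dot is the log2 fold change of KO over control of 1 gene in M0, M1 and M2 cells, on the log2(TPM + 1) scale, with bars of 1 SE and filled dots for adjusted p below 0.05. Filled dots number 2 in M0, 39 in M1 and 12 in M2, and all 39 in M1 are below 0.

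Under M1 conditions the factors were lower in KO than in control cells almost without exception. Of the 42, 39 were called lower and none higher, where 33.4% of tested genes were called lower and 16.9% higher. The median log2 fold change of KO over control was -0.37, beside -0.06 over all tested genes. In 37 genes each KO library was below each control library, as in 38.5% of tested genes. No factor was lower by 2-fold on this scale, as 1.17% of tested genes were, and none was higher at an unadjusted p below 0.05. By class 5 of 5 Pol I genes, 4 of 4 box C/D genes, 2 of 4 box H/ACA genes, 6 of 6 nucleolar scaffolds, 11 of 12 small subunit and 11 of 11 large subunit factors fell.

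Grwd1 differed most, with 1.08, 1.27 and 1.21 TPM in KO M1 libraries and 2.71, 3.07 and 2.84 TPM in control M1 libraries. The groups lay far apart, 2.42 times lower in KO by mean TPM, and the log2 fold change was -0.82 ± 0.06 (adjusted p = 7.24e-10). Nop16, a large subunit factor, averaged 11.4 ± 0.75 TPM in KO and 18.2 ± 1.2 TPM in control M1 cells (log2 fold change -0.63 ± 0.06, adjusted p = 3.46e-08). Rrp9 was at 4.52, 6.42 and 5.26 TPM in KO and 8.42, 8.73 and 9.09 TPM in control M1 libraries (log2 fold change -0.62 ± 0.08, adjusted p = 2.31e-06). For both genes the highest KO library was below the lowest control library. By ratio of mean TPM, Utp20 (1.37 TPM in KO and 2.52 TPM in control) and Polr1e (1.55 and 2.71) differed more than Nop16 and Rrp9.

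The 3 genes not called were Bysl (adjusted p = 0.0551), Nhp2 (adjusted p = 0.561) and Nop10 (adjusted p = 0.165). Nop10 averaged 11.4 ± 0.39 TPM in KO and 10.6 ± 0.83 TPM in control M1 cells, and its libraries overlapped. With TMM or median-ratio factors 35 genes were called lower, where 27.1% or 26.1% of tested genes were. Polr1a, Polr1b, Nob1 and Noc2l were no longer called, and Nop10 was called higher. Without control M1 library 2, 1 factor was called higher. Under both scalings rises changed share, making up 47.1% or 48.8% of all calls, against 33.6% as deposited.

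Counts of other lists in the same comparison stand beside the 33.4% of tested genes called lower. In KO over control M1 cells 27 of 38 other small subunit factors were lower and 1 higher (median -0.28), 39 of 45 other large subunit factors were lower (median -0.29), 4 of 10 Pol I partners were lower (median -0.15), and 7 of 12 exosome genes were lower and 1 higher (median -0.17). Pol II subunits were lower in 8 of 12 and higher in 1, and Pol III subunits lower in 7 of 11 and higher in 1. With TMM factors the numbers lower were 25, 37, 2, 6, 4 and 5 for these 6 lists in the same order, and the numbers higher were 2, 2, 1, 1, 1 and 1, beside 27.1% of tested genes lower. The count of Pol I partners was thus near the background. Cell division genes were lower in 16 of 24, with a median of -0.37. Their summed TPM was 341 to 349 in KO and 454 to 478 in control M1 libraries. Summed macrophage markers were 5452 to 5624 TPM in KO and 6106 to 6257 TPM in control M1 libraries. They were lower in KO in the other conditions too, at 4917 to 5006 TPM in KO and 6049 to 6192 TPM in control M0 libraries, and at 4037 to 4235 TPM in KO and 4769.6 to 4928 TPM in control M2 libraries. The neutrophil list summed to 10.1 to 12.6 TPM in KO and 52.9 to 62.0 TPM in control M1 libraries. In each M1 and M2 group 1 of its 4 genes averaged 1 TPM or more, and in the M0 groups none did. S100a9, Mpo and Elane were listed at 0 in every control M1 library, so the control M1 sum is that of 1 gene. The part of these lists in the difference was not tested.

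The response to M1 itself also differed between the lines. The difference in log2 fold change, KO minus control, was called below 0 for 37 factors and above 0 for none, where 23.9% of tested genes were below and 12.1% above, and none was above 0 at an unadjusted p below 0.05. The median difference was -0.36, beside -0.07 over all tested genes. Grwd1 (-0.83 ± 0.08, adjusted p = 2.69e-07), Nop16 (-0.64 ± 0.08, adjusted p = 7.16e-06) and the nucleolar GTPase Gnl3 (-0.61 ± 0.09, adjusted p = 1.75e-05) had the largest differences on the log2(TPM + 1) scale. That scale understates differences of genes near 1 TPM, such as Utp20, at 1.37 TPM in KO and 2.52 TPM in control M1 cells. Gnl3 averaged 9.51 TPM in KO and 13.6 TPM in control M1 cells, against 185 TPM in KO and 168 TPM in control M0 cells. Polr1a, Nhp2, Rrp12, Bysl and Nob1 were not called. This comparison uses the same M1 libraries as the one of KO with control in M1, so the pair of counts are not separate evidence. With TMM factors 32 and with median-ratio factors 30 genes were below 0, where 19.5% and 18.4% of tested genes were. Rises were 46.4% or 49.1% of all calls, against 33.6% as deposited.

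Under M2 conditions fewer factors differed. Of the 42, 11 were called lower in KO and 1 higher, where 18.3% of tested genes were called lower and 12.7% higher, so the share of lower factors was not far from the background. The median log2 fold change of KO over control was -0.08, beside -0.03. The 11 were Nop56, Dkc1, Nop58, Grwd1, Wdr12, Nop14, Polr1c, Wdr75, Ncl, Npm1 and Wdr43. With TMM and with median-ratio factors 7 of these calls were lost, those of Nop58, Grwd1, Nop14, Wdr75, Ncl, Npm1 and Wdr43. Nop56, a core box C/D protein, was at 248, 219.6 and 219.7 TPM in KO and 269, 269.7 and 272 TPM in control M2 libraries (log2 fold change -0.24 ± 0.04, adjusted p = 2.19e-04). Dkc1 was at 69.3, 65.7 and 66.3 TPM in KO and 78.3, 78.9 and 78.2 TPM in control M2 libraries (log2 fold change -0.22 ± 0.05, adjusted p = 0.00171). In both genes every KO library was below every control library.

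Nop58 was at 299.8, 264 and 247 TPM in KO and 305, 305 and 332 TPM in control M2 libraries (log2 fold change -0.22 ± 0.06, adjusted p = 0.0108). Its first KO library came close to the control libraries, and the call was lost in 4 of the alternatives, with TMM factors (log2 fold change -0.19, adjusted p = 0.0502), with median-ratio factors (-0.19, adjusted p = 0.0531), without control M2 library 3 (-0.18, adjusted p = 0.0590) and without KO M2 library 3 (-0.16, adjusted p = 0.0672). Nop10 was again higher in KO, at 166, 146 and 157 TPM, than in control, at 132, 141 and 131 TPM (log2 fold change 0.21 ± 0.06, adjusted p = 0.00782). With TMM or median-ratio factors 4 genes were called lower, where 14% or 13.4% of tested genes were. The share of lower factors was then below the background. Rises were 53.9% or 55.3% of all calls, against 41.0% as deposited. Without control M2 library 3 the number lower was 3, without KO M2 library 3 it was 6, and without control M2 library 1 it was 7. Without KO M2 library 1 the number higher was 3. Of the 24 cell division genes 14 were lower and 1 higher in KO M2 cells, with a median of -0.21. The number lower was 10 with TMM and 8 with median-ratio factors. Their summed TPM was 3397 to 3482 in KO and 3918 to 3947 in control M2 libraries, and their part in the difference was not tested.

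In the response to M2, 2 of the 42 factors were called different between the lines, Dkc1 and Nop56, which is no more than the background. Their differences, KO minus control, were -0.30 ± 0.07 (adjusted p = 0.00616) and -0.24 ± 0.06 (adjusted p = 0.0108), and 7.05% of tested genes were called below 0. No factor was called above 0, where 7.06% of tested genes were, and none was at an unadjusted p below 0.05. Nop56 was lost with TMM (adjusted p = 0.0525) and median-ratio factors (adjusted p = 0.0530), with which rises were 60.1% or 63.3% of all calls, against 50% as deposited.

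Genes of the MYC network changed in these cells in both directions. Mycn was the abundant MYC gene of M0 cells, at 538 TPM in KO and 513 TPM in control, and Myc was at 0.547 and 0.460 TPM. In M1 cells Mycn was at 89.7, 91.2 and 89.6 TPM in KO and 70.5, 68.1 and 70.2 TPM in control libraries, and Myc was at 82.7, 79.9 and 82.0 TPM in KO and 56.1, 58.7 and 61.2 TPM in control libraries. Mycn thus fell in M1 over M0, with a log2 fold change of -2.56 in KO and -2.86 in control (adjusted p = 7.12e-23 and 1.65e-23). Myc rose, by 5.74 in KO and 5.36 in control (adjusted p = 7.52e-23 and 2.60e-22). Both genes were higher in KO than in control M1 cells, where the ribosome biogenesis factors were lower, by 0.37 for Mycn (adjusted p = 6.63e-08) and 0.47 for Myc (adjusted p = 7.80e-05).

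Among the MYC antagonists Mxd1 rose most in M1, to 471, 467 and 469 TPM in KO and 413, 421 and 409 TPM in control libraries, against 4.35 to 4.57 TPM in KO and 3.42 to 4.72 TPM in control M0 libraries (log2 fold change 6.43 in KO and 6.35 in control, adjusted p = 1.55e-24 and 2.19e-24). Mxi1, another MXD protein, averaged 112 TPM in KO M1 and 76.6 TPM in control M1 (KO over control 0.54, adjusted p = 6.16e-09). Mxd1 was 0.18 higher in KO than in control M1 cells (adjusted p = 0.0371), a call lost in 8 of the 26 alternatives. Max, the shared partner, rose by 0.62 in KO and 0.59 in control M1 cells (adjusted p = 2.87e-14 and 7.03e-14), and KO and control did not pass the test against each other (log2 fold change 0.06, adjusted p = 0.104). Of the 10 MYC network genes 6 were called higher and 3 lower in KO than in control M1 cells. The lower genes were Mnt, Mga and Mlx. Mnt was at 14.62, 15.25 and 14.62 TPM in KO and 18.03, 18.56 and 17.4 TPM in control M1 libraries. With TMM or median-ratio factors 7 genes were called higher and 1 lower.

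The remaining antagonists and partners were not uniform. In M1 over M0 Mxd3 fell by 2.63 in KO and 2.93 in control (adjusted p = 8.03e-15 and 1.44e-15) and Mxd4 fell by 0.54 in KO and 0.70 in control (adjusted p = 2.78e-06 and 7.11e-08), while Mlx rose by 0.74 and 0.63 (adjusted p = 3.78e-13 and 6.68e-12). Mnt and Mga fell in KO, by 0.49 and 0.41 (adjusted p = 1.03e-07 and 9.01e-04), and with TMM or median-ratio factors the sign of both turned and neither was called. In control cells neither was called as deposited (log2 fold change -0.09 and -0.20, adjusted p = 0.136 and 0.0755), and the MYC network genes called higher numbered 5 as deposited and 7 with either scaling, with 3 lower in each case. In KO cells 5 were higher and 5 lower as deposited, and 5 higher and 2 lower with either scaling. The Mxd4 call in KO was lost with TMM or median-ratio factors. In M2 cells Mycn fell by 0.96 in KO and 0.99 in control (adjusted p = 5.77e-15 and 4.60e-15), Myc rose by 3.52 in KO and 3.43 in control (adjusted p = 2.28e-18 and 5.10e-18), and Mxd4 rose by 2.02 and 1.96 (adjusted p = 1.30e-14 and 2.96e-14). Mxd1 averaged 9.90 TPM in KO and 5.25 TPM in control M2 cells, a log2 fold change of 0.81 (adjusted p = 3.24e-08). The part of these genes in the changes of the ribosome biogenesis factors was not tested.

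**Figure D5:**
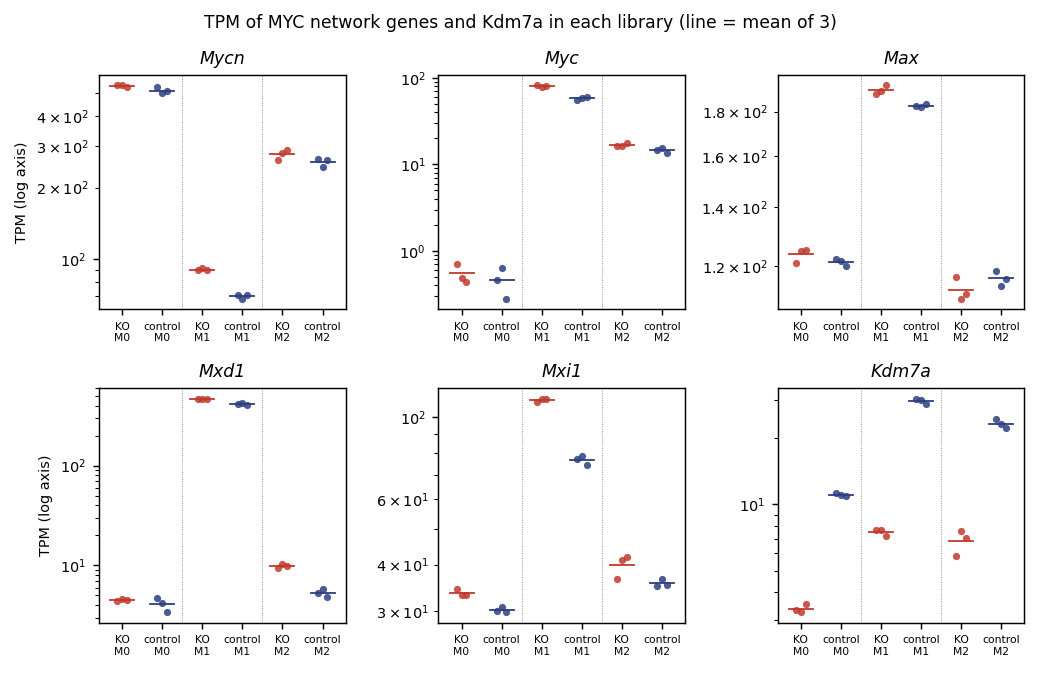
TPM of 5 MYC network genes and Kdm7a in each library on a log axis, with KO (red) left of control (blue) in each condition and the mean of 3 libraries as a line. In M1, Mycn is lower and Myc, Mxd1 and Mxi1 are higher than in M0, and Kdm7a is lower in KO than in control in all 3 conditions.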

How the data were processed

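Libraries of poly(A) RNA were prepared with a NEBNext Ultra II kit, per the labels' protocols. The authors deposited TPM values, 1 column per library and 1 row per gene symbol, with 2 decimals. The submitters' processing notes name Trim Galore and mm10. Which aligner, quantifier and annotation were used is not given in the sources used here. TPM keep no depth, so no counting interval was computed, and replicates were not pooled.

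From these values limma 3.58.1 in R 4.3.3 (trend and robust variance moderation, two-sided) was fitted to log2(TPM + 1) of all 18 libraries with 6 group means, over 11548 genes, with Benjamini-Hochberg adjustment over all of them. The design had foreseen counts first, and the TPM form was used because the table holds TPM. The 9 comparisons were M1 and M2 over M0 in each line, KO over control in each condition, and the KO minus control differences of both responses. Genes given with a test were the 3 largest called rises and falls without overlap between libraries, the largest change and the highest level of each class in the M1 and M2 responses of control cells, Kdm7a and the MYC network. Outside this rule, tests were given for Bysl, Nhp2 and Nop10 in KO over control M1 cells. They were also given in M2 over M0 for Npm1 in KO cells and for Dkc1 in control cells. Rrn3, Rrp9, Noc4l, Bop1, Pes1 and Wdr12 were singled out with levels or fold changes after their values were seen. The factors and the other lists were chosen with earlier results of these data known. The fit was tested on simulated data. Alternatives were trimmed-mean (TMM) factors and median-ratio factors on TPM, no trend, no filter, a 5 TPM filter, a pseudocount of 0.1 TPM, only the groups compared, a replicate block, and each library left out. Exon overlaps came from GENCODE on the mm10 build. Figures used matplotlib 3.10.9 in Python 3.11.15.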

Additional observations from a re-analysis of the deposited data

Results flagged for a closer look

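The response to M1 differed between KO and control cells for 37 of the 42 factors, all with a larger fall in KO, by the test of the difference itself in limma, where 23.9% of tested genes were called lower. With TMM factors the number was 32 and with median-ratio factors 30, where 19.5% and 18.4% of tested genes were called lower. Named differences, KO minus control on the log2 scale, were -0.83 for Grwd1, -0.64 for Nop16 and -0.61 for Gnl3. The response to M2 differed for 2 factors, Dkc1 at -0.30 and Nop56 at -0.24. With 7.05% of tested genes called lower, 2 of 42 is no more than the background, and the Nop56 call was lost with TMM (adjusted p = 0.0525) and median-ratio factors (adjusted p = 0.0530). One KO line and 1 control line were compared, so a difference between the lines cannot be told apart from an effect of the gene.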

How the results depend on the processing

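All 42 factors fell in M1 over M0 in both lines under each of the 26 alternatives, 8 of settings and 18 that leave out 1 library. Of 2808 recomputed values of single genes, 2720 kept direction and call, 84 kept direction but lost the call, and 4 changed sign. The sign changes were in M1 over M0 of KO cells, for Mga (0.113 with TMM and 0.0886 with median-ratio factors) and Mnt (0.0497 and 0.0246). The causes were not tested.

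With TMM and with median-ratio factors, 1 factor was called higher in KO than in control M1 cells, 4 were called lower in KO M2 cells, and 1 had a lower M2 response. Of the tested genes 14% and 13.4% were called lower in KO M2 cells under these scalings, and 5.7% and 5.19% had a lower M2 response. In M0, no factor was lower without a filter, and a fit of only the groups compared called 2 higher and 3 lower. Leaving out 1 library gave 0 to 2 lower in M0, 0 to 1 higher and 36 to 39 lower in M1, 1 to 3 higher and 3 to 11 lower in M2, 33 to 37 with a lower M1 response, 2 to 3 with a lower M2 response, and, for M2 over M0, 33 to 35 lower in KO and 34 to 37 in control cells. Deviations of same-numbered libraries from their group means correlated weakly at most (45 pairs, r -0.16 to 0.15, 7 above 0.1). Of the 18 libraries 11 correlated best with their own number, and whether libraries of 1 number were paired was not tested. The replicate block moved 1 count, to 38 lower in KO M1 cells against 39. Without depth, no limit of detection can be given.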
